A study of Homo sapiens with 9 samples.

Results

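The 45 genes described here encode the machinery that copies DNA in S phase, and they were found in the deposited gene table by exact symbol. All 45 are among the 60612 genes of the table, and all 45 are among the 20157 genes whose counts were high enough to be tested. They were sorted by known function into 10 role groups: cyclin E, origin licensing, the MCM proteins, CDC45 and the GINS complex, PCNA with its loader, the polymerases, RPA, flap removal and ligation, nucleotide supply, and chromatin assembly.

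The cells were HepG2, a line from a human liver carcinoma that keeps many hepatocyte features and divides in culture. They were given 50 µM PQY09, 50 µM PQY23_1 or 0.1% DMSO, the solvent, and 3 RNA libraries were sequenced per group. By the title of the series, PQY09 is Butyrolactone I, a butenolide made by fungi and known to inhibit CDKs (cyclin dependent kinases), PQY23_1 is one of its derivatives, and the aim was to look for their targets. All libraries come from this 1 cell line, and neither the exposure time, nor the structure of PQY23_1, nor the solvent in the compound wells is stated by the sources used here.

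In a dividing cell, origins of replication are licensed when the origin recognition complex, CDC6 and CDT1 load the MCM helicase onto DNA. Cyclin E with CDK2 and other kinases then allow CDC45 and GINS to join the helicase, and polymerases, a sliding clamp and its loader copy both strands while new nucleosomes are assembled behind the fork. Many of these genes are transcribed late in G1 by E2F factors, which the retinoblastoma protein holds back until it is phosphorylated by cyclin dependent kinases.

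The 5 members that passed the test under PQY09 were MCM3, GINS2, RFC3, PRIM1 and CHAF1A, and their promoters are shown because they carry these calls and E2F factors are known regulators of such genes. Each sequence runs 5′ to 3′ on the strand of the gene, over 250 bases before and 50 bases after the RefSeq start (build GRCh38.p14). Capitals mark the words TTTCCCGC, TTTGGCGC, TTTCGCGC and TTTGCCGC on either strand, which are some forms of the E2F motif.
MCM3 (chr6:52284693-52284992, minus strand): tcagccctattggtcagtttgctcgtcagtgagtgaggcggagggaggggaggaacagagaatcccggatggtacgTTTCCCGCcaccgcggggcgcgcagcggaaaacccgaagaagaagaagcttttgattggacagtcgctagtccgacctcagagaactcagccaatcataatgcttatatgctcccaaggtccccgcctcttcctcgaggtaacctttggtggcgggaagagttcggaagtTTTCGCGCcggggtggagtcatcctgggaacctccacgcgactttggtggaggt
GINS2 (chr16:85688905-85689204, minus strand): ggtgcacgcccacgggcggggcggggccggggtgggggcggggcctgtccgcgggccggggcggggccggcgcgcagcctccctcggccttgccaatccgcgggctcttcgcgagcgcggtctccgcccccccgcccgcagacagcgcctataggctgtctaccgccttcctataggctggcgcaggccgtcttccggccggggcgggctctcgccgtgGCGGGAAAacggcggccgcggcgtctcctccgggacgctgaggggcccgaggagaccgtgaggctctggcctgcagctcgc
RFC3 (chr13:33817899-33818198, plus strand): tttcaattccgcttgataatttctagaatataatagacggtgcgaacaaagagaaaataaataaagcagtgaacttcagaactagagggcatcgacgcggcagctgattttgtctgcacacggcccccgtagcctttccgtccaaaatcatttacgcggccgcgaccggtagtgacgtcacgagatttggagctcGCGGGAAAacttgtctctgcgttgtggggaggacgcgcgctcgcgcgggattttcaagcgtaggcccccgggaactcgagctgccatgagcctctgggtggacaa
PRIM1 (chr12:56752274-56752573, minus strand): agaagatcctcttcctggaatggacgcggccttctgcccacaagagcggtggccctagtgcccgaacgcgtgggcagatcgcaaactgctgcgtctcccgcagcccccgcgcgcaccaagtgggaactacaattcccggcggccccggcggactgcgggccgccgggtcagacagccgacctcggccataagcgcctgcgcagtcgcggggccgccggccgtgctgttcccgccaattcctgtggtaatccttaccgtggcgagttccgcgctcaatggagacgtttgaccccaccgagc
CHAF1A (chr19:4402390-4402689, plus strand): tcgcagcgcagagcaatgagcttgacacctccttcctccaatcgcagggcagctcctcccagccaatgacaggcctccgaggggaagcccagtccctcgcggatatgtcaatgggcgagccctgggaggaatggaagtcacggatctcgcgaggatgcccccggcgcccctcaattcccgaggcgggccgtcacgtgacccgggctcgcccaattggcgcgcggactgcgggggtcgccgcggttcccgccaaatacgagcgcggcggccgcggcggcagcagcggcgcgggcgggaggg

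The MCM3 window holds 2 of these E2F words, those of GINS2 and RFC3 hold 1 each, and those of PRIM1 and CHAF1A hold none. Other forms of the E2F motif were not searched, so a window without a word may still hold an E2F site. RefSeq promoters were found for 38 of the 45 genes, and 18 of the 38 (47.4%) hold at least 1 of the words. Among 71 promoters of other replication, nucleotide, chromatin and E2F pathway genes 17 (23.9%) do so, among 22 promoters of G2 and mitosis genes 3 (13.6%), and among all 27305 RefSeq promoters it is 908 (3.33%). The CCAAT box, searched as CCAAT on both strands, lies in 22 of the 38 replication promoters (57.9%), against 35.7% of all promoters. The cell cycle homology region, searched as TTTGAA or TTCGAA on both strands, lies in 2 of the 38 (5.26%), in 18 of the 22 G2 and mitosis promoters (81.8%) and in 16.6% of all promoters. Of the 24 E2F matches in the replication promoters, 1 overlaps a CCAAT box or homology region. There are 3 pairs of E2F matches that overlap each other, so the 24 are not all separate sites. A match only describes the letters in this window. An E2F word lies in 13 of the 28 promoters (46.4%) of members whose PQY09 libraries were all above the DMSO libraries, and in 5 of the 10 promoters (50%) of members whose libraries overlapped.

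The deposited counts summed to between 85050531 and 107538450 per library. Values are given as CPM, counts scaled to library size with TMM factors, for comparing groups, and as FPKM, which also divides by gene length, for comparing genes. Mitochondrially encoded genes took 13.3% ± 1.11 of the counts in PQY09 libraries, 15.8% ± 1.10 in PQY23_1 libraries and 13.4% ± 0.742 in DMSO libraries (SD, n = 3 each). The part of this in the results for the replication genes was not tested. All 8 hepatocyte markers checked had at least 1 FPKM in every library, and their summed level was 5822 to 6196 FPKM under PQY09, 5108 to 5341 under PQY23_1 and 5591 to 5846 under DMSO. All 6 fibroblast or stellate cell markers and all 4 endothelial markers were under 1 FPKM in every library. Of 5 immune markers 3 were under 1 FPKM throughout, among them PTPRC, a marker of leukocytes, and CD3E, a marker of T cells. The list summed to 255 to 336 FPKM under PQY09, 460.2 to 561 under PQY23_1 and 502 to 684 under DMSO, mostly from LYZ, and its part in the results was not tested. The labels do not say whether replicate libraries are from separate cultures, so the tests cover only the spread among these samples, which may be technical. In bulk RNA a larger share of cells in S phase and more of each transcript per cell cannot be told apart.

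The replication genes were a little higher in PQY09 cells, 1.15-fold at the median, and 43 of the 45 lay above their DMSO level. Their share of all counts was 0.447% ± 0.00169 in PQY09 libraries, 0.396% ± 0.00762 in PQY23_1 libraries and 0.378% ± 0.00658 in DMSO libraries (SD, n = 3 each). Summed over the 45 genes, the level was 4397, 4350.3 and 4452 CPM in the PQY09 libraries, 4096, 4051 and 3972 CPM in the PQY23_1 libraries and 3777, 3779 and 3754 CPM in the DMSO libraries. On the CPM scale the 3 groups do not overlap in this sum, with PQY09 highest and DMSO lowest. The sum was not taken as TPM, which rescales FPKM to the same total in every library. On that scale the members' median log2 fold change under PQY23_1 was -0.024, so the order of PQY23_1 and DMSO depends on the scale.

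**Figure D1:**
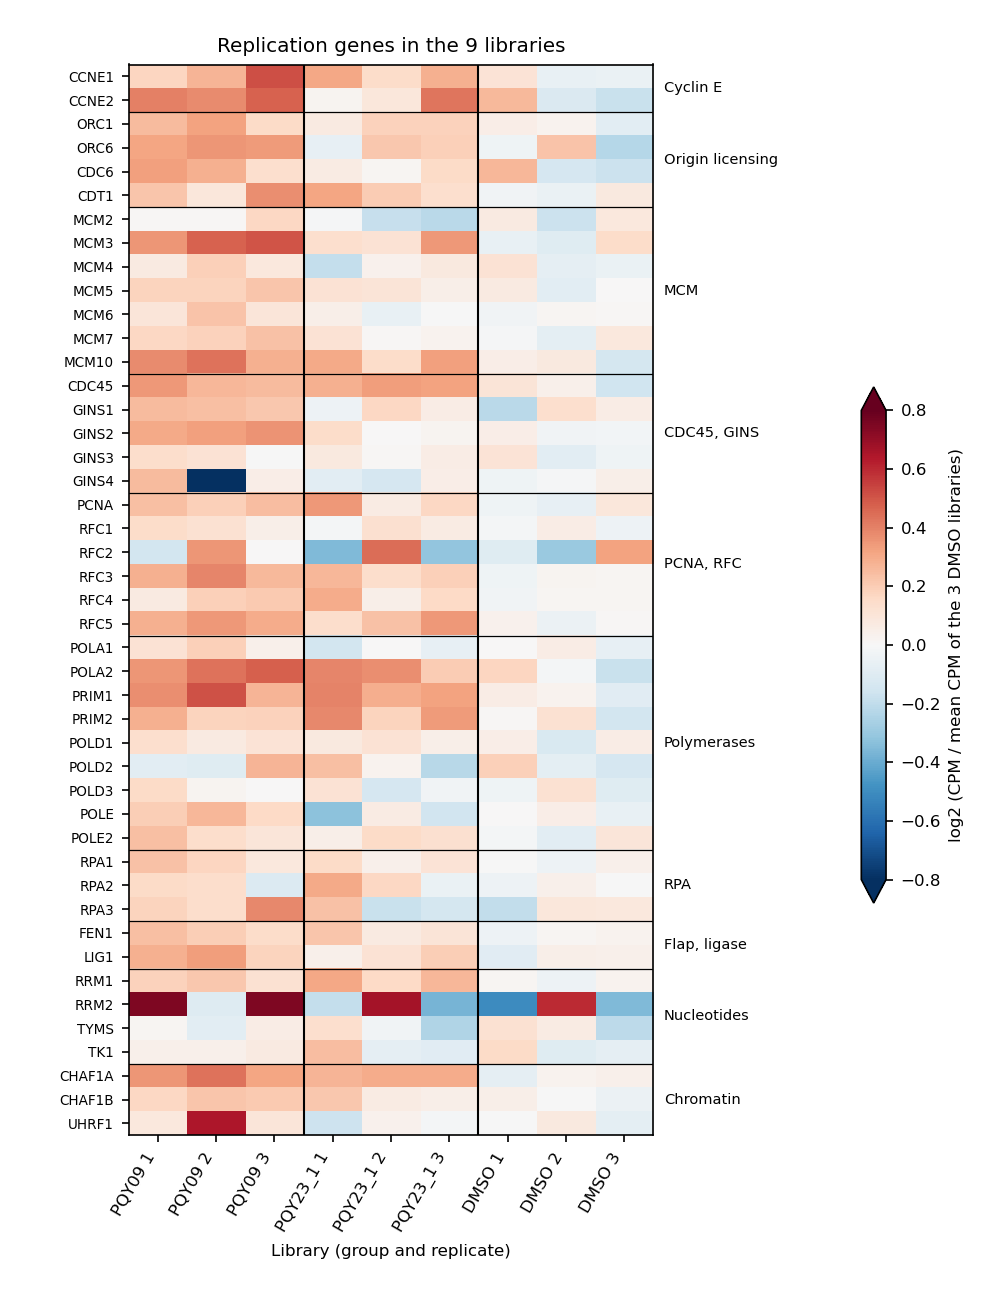
Level of each of the 45 replication genes (rows, by role group) in each of the 9 libraries (columns), as log2 of CPM over the mean CPM of the 3 DMSO libraries; colours end at -0.8 and 0.8. The PQY09 columns are mostly red, with per-library medians of 0.22, 0.20 and 0.19, the PQY23_1 columns are paler, with medians of 0.14, 0.10 and 0.08, and RRM2, RFC2, GINS4 and UHRF1 vary between libraries of 1 group.

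With PQY09 against DMSO, 5 of the 45 genes were called higher and 0 lower by edgeR's quasi-likelihood test (adjusted p below 0.05 over all 20157 genes). The background is 1.78% of all genes called higher, 1.07% lower and 2.85% in either direction. At an unadjusted p below 0.05 there were 25 higher and 0 lower among the 45, against 15.6% of all genes in either direction (1707 higher and 1437 lower). DESeq2 called 9 members higher and 0 lower. Over all genes it called 684 higher and 569 lower, against 358 higher and 216 lower by edgeR. The log2 fold change was above 0 for 43 of the 45 genes and its median was 0.21, against 50.5% above 0 and a median of 0.00 over all genes. In 31 of the 45 genes all 3 PQY09 libraries lay above all 3 DMSO libraries and in 0 genes below, against 12.9% and 11.5% of all genes. The changes were small. The 5 called genes were 1.24 to 1.36 times higher, and no member reached 1.5-fold. For 37 of the 45 the 95% interval lay within 1.5-fold in either direction.

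With PQY23_1 against DMSO, 1 of the 45 genes was called higher and 0 lower. That is 2.22% of the list, a share near the background. Of all genes 1.51% were called higher, 1.04% lower and 2.55% in either direction. Unadjusted p was below 0.05 for 14 higher and 0 lower genes, against 16.3% of all genes in either direction (1795 higher and 1486 lower). DESeq2 called 4 members higher and 0 lower. Over all genes it called 686 higher and 577 lower, against 305 higher and 209 lower by edgeR. The log2 fold change was above 0 for 34 of the 45 and its median was 0.11, against 51.1% and a median of 0.01 over all genes. All 3 PQY23_1 libraries lay above all 3 DMSO libraries in 15 genes and below in 0, against 11.8% and 10.7% of all genes. Both compounds are set against the same 3 DMSO libraries, so their values are given side by side and their likeness is not a result. On a TPM scale the median of all genes under PQY23_1 moved to -0.11 and that of the replication genes to -0.024 (17 of the 45 above 0 and 34 above the median of all genes). There 23.1% of the genes called under PQY23_1 were higher, against 59.3% here.

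**Figure D2:**
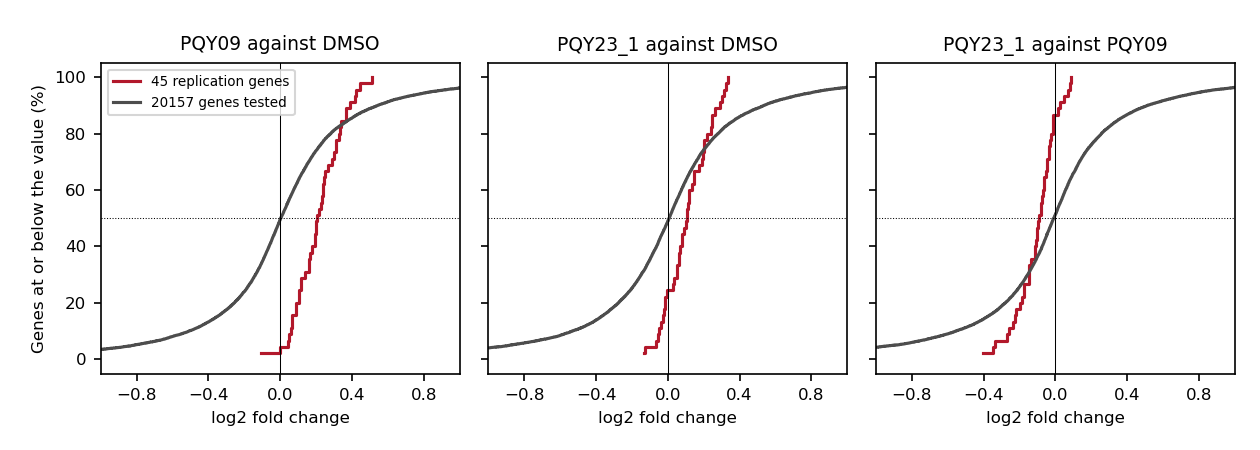
Share of genes (vertical axis, in %) whose log2 fold change is at or below the value on the horizontal axis, for the 45 replication genes in red and all 20157 genes tested in grey, with the axis ending at -1 and 1. The red curve lies right of the grey one at the dotted 50% line for PQY09 against DMSO (medians 0.21 and 0.00) and PQY23_1 against DMSO (0.11 and 0.01), and left of it for PQY23_1 against PQY09 (-0.09 and -0.01).

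Neither of the 2 genes of cyclin E, the partner of CDK2 at the entry into S phase, passed the test, and all their log2 fold changes against DMSO were above 0. CCNE1 (ENSG00000105173, chr19:29811991-29824312) had 48.8, 52.3 and 62.1 CPM in the PQY09 libraries, 53.6, 48.01 and 52.8 in the PQY23_1 libraries and 46.7, 41.6 and 41.8 in the DMSO libraries. All PQY09 and all PQY23_1 libraries were above the highest DMSO library, with log2 fold changes of 0.33 ± 0.10 (SE; edgeR adjusted p = 0.142) and 0.25 ± 0.10 (edgeR adjusted p = 0.261). CCNE2 is the least abundant of the 45 genes per length, with 1.37 ± 0.0267 FPKM in PQY09 cells, 1.13 ± 0.177 FPKM in PQY23_1 cells and 1.01 ± 0.171 FPKM in DMSO cells (SD, n = 3 each). It had 6.96, 6.84 and 7.31 CPM in the PQY09 libraries, 5.34, 5.61 and 7.096 in the PQY23_1 libraries and 6.303, 4.86 and 4.65 in the DMSO libraries. The PQY09 libraries were above the DMSO libraries, whereas the PQY23_1 libraries overlapped them; the log2 fold changes were 0.42 ± 0.16 and 0.19 ± 0.16 (edgeR adjusted p = 0.238 and 0.628).

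Of the 4 licensing genes none passed the test in either comparison with DMSO, although all 4 log2 fold changes were above 0 in each. ORC6 (ENSG00000091651, chr16:46689643-46698394) encodes the smallest subunit of the origin recognition complex. ORC6 RNA stood at 61.3, 63.1 and 62.6 CPM in the PQY09 libraries, 47.3, 57.2 and 56.4 in the PQY23_1 libraries and 48.2, 57.7 and 42.2 in the DMSO libraries. Its PQY09 libraries agreed closely and lay above a scattered DMSO group, and its PQY23_1 libraries overlapped that group; the log2 fold changes were 0.34 ± 0.12 and 0.12 ± 0.12 (edgeR adjusted p = 0.199 and 0.703). CDT1 (ENSG00000167513, chr16:88803789-88809258) encodes a protein that brings MCM proteins to origins and is destroyed once S phase begins. CDT1 RNA stood at 55.9, 51.1 and 62.1 CPM in the PQY09 libraries, 59.6, 55.1 and 52.6 in the PQY23_1 libraries and 46.9, 46.3 and 50.6 in the DMSO libraries. Both compound groups lay above DMSO, CDT1 differing by 0.23 ± 0.09 under PQY09 and 0.22 ± 0.09 under PQY23_1 (edgeR adjusted p = 0.225 and 0.252). ORC1, the ATP-binding subunit that recognises origins, stood at 0.25 ± 0.07 and 0.15 ± 0.07 with no overlap with DMSO. CDC6, the ATPase that works with it, stood at 0.25 ± 0.12 and 0.08 ± 0.12 with overlap.

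Among the 7 MCM genes, MCM2 to MCM7, the subunits of the ring-shaped helicase, and MCM10, a separate factor that helps to start it, 1 was called under PQY09 and none under PQY23_1. Their summed level was 1441 ± 43.8 CPM in PQY09 cells, 1282 ± 35.7 CPM in PQY23_1 cells and 1225 ± 62.6 CPM in DMSO cells (SD, n = 3 each). MCM3 (ENSG00000112118, chr6:52264014-52284881) had 405, 440.3 and 449 CPM in the PQY09 libraries, 349, 344 and 404 in the PQY23_1 libraries and 304, 296 and 352 in the DMSO libraries. The PQY09 libraries were above all others, the third PQY23_1 library just below the lowest of them, and PQY23_1 and DMSO overlapped. MCM3 rose 1.36-fold under PQY09, a log2 fold change of 0.44 ± 0.09 (edgeR adjusted p = 0.0384), and stood at 0.20 ± 0.09 under PQY23_1 (edgeR adjusted p = 0.304). It is the second most abundant of the 45 genes per length, with 101 ± 4.99 FPKM in PQY09 cells, 83.4 ± 7.51 FPKM in PQY23_1 cells and 73.5 ± 6.198 FPKM in DMSO cells. MCM10 (ENSG00000065328, chr10:13161554-13211104) had 43.5, 45.04 and 40.7 CPM in the PQY09 libraries, 41.3, 36.9 and 41.95 in the PQY23_1 libraries and 34.7, 35.3 and 30.3 in the DMSO libraries. Both compound groups were above DMSO, at 0.37 ± 0.08 and 0.26 ± 0.08 (edgeR adjusted p = 0.0608 and 0.165). None of the other 5 subunits was called. Their log2 fold changes under PQY09 were 0.19 ± 0.05 for MCM5, 0.20 ± 0.06 for MCM7, 0.14 ± 0.06 for MCM6, 0.12 ± 0.08 for MCM4 and 0.06 ± 0.09 for MCM2. Under PQY23_1 the same subunits lay between -0.13 for MCM2 and 0.09 for MCM5.

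CDC45 and the 4 GINS proteins bind the MCM ring to make the active helicase, and 1 of the 5 genes, GINS2, was called under PQY09. GINS2 (ENSG00000131153, chr16:85676198-85688954) had 76.1, 77.5 and 79.2 CPM in the PQY09 libraries, 68.4, 61.9 and 62.8 in the PQY23_1 libraries and 63.96, 60.5 and 60.7 in the DMSO libraries. Its PQY09 libraries lay above every library of the other groups, while PQY23_1 and DMSO overlapped. GINS2 rose 1.26-fold under PQY09 (0.33 ± 0.06, edgeR adjusted p = 0.0216) and stood at 0.06 ± 0.06 under PQY23_1 (edgeR adjusted p = 0.698, 95% interval -0.07 to 0.19). CDC45 (ENSG00000093009, chr22:19479457-19520612) had 34.7, 32.8 and 32.6 CPM in the PQY09 libraries, 33.2, 34.4 and 34.2 in the PQY23_1 libraries and 29.4, 28.1 and 24.4 in the DMSO libraries. Here both compounds gave about the same level, above DMSO, at 0.29 ± 0.08 and 0.31 ± 0.08 (edgeR adjusted p = 0.104 and 0.0851). GINS1 stood at 0.24 ± 0.09 under PQY09 with no overlap, GINS3 at 0.09 ± 0.08 with overlap, and GINS4 at -0.10 ± 0.23. GINS4 had 36.5, 17.2 and 31.8 CPM in the PQY09 libraries, 28.9, 27.9 and 31.7 in the PQY23_1 libraries and 29.8, 30.4 and 31.6 in the DMSO libraries. Its second PQY09 library is the low one, and GINS4 and TYMS are the 2 of the 45 genes whose log2 fold change under PQY09 was below 0.

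PCNA, the sliding clamp that holds polymerases on DNA, is the most abundant of the 45 genes per length. It had 292 ± 4.197 FPKM in PQY09 cells, 278 ± 26.8 FPKM in PQY23_1 cells and 246 ± 11.8 FPKM in DMSO cells (SD, n = 3 each). All 3 PQY09 libraries lay above the highest DMSO library in CPM, and the log2 fold changes were 0.23 ± 0.08 under PQY09 and 0.20 ± 0.08 under PQY23_1 (edgeR adjusted p = 0.192 and 0.249). Of the 5 subunits of replication factor C, which loads the clamp, RFC3 was called under PQY09. RFC3 (ENSG00000133119, chr13:33818069-33966558) had 59.5, 64.1 and 58.5 CPM in the PQY09 libraries, 58.8, 53.9 and 55.9 in the PQY23_1 libraries and 47.7, 49.7 and 49.4 in the DMSO libraries. PQY09 and PQY23_1 overlapped each other, and both lay above DMSO. RFC3 rose 1.24-fold under PQY09 (0.31 ± 0.06, edgeR adjusted p = 0.0349), against 0.20 ± 0.06 under PQY23_1 (edgeR adjusted p = 0.145). RFC5 (ENSG00000111445, chr12:118013590-118032230) had 37.02, 38.7 and 37.4 CPM in the PQY09 libraries, 33.5, 35.7 and 38.7 in the PQY23_1 libraries and 31.1, 29.5 and 30.6 in the DMSO libraries. Both compound groups were again above DMSO, at 0.31 ± 0.07 and 0.24 ± 0.07 (edgeR adjusted p = 0.0558 and 0.118). RFC4 stood at 0.16 ± 0.08 and 0.17 ± 0.08, and RFC1, the largest subunit, at 0.11 ± 0.06 and 0.06 ± 0.06. RFC2 had 95% intervals of -0.48 to 0.65 and -0.59 to 0.54, too wide to give a direction.

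Of the 9 polymerase genes only PRIM1 was called, and it and POLA2, which had the larger value under PQY09, belong to the polymerase alpha-primase complex, which makes the RNA-DNA primers. PRIM1 (ENSG00000198056, chr12:56731296-56752374) encodes the catalytic primase subunit. PRIM1 RNA stood at 25.1, 27.5 and 23.4 CPM in the PQY09 libraries, 25.5, 23.6 and 24.2 in the PQY23_1 libraries and 20.1, 19.7 and 18.2 in the DMSO libraries. Every library of either compound lay above every DMSO library. PRIM1 rose 1.31-fold under PQY09 (0.39 ± 0.08, edgeR adjusted p = 0.0478), and stood at 0.34 ± 0.08 under PQY23_1 (edgeR adjusted p = 0.0813). POLA2 (ENSG00000014138, chr11:65261920-65305589) encodes the accessory subunit. POLA2 RNA stood at 25.95, 27.5 and 28.3 CPM in the PQY09 libraries, 26.6, 26.3 and 23.4 in the PQY23_1 libraries and 22.9, 20.1 and 17.9 in the DMSO libraries. Its groups were likewise apart from DMSO, at 0.42 ± 0.10 and 0.32 ± 0.10 (edgeR adjusted p = 0.0705 and 0.154). PRIM2, the large primase subunit, stood at 0.22 ± 0.09 and 0.30 ± 0.09, and POLA1, the DNA polymerase of the complex, at 0.12 ± 0.07 and -0.07 ± 0.07. No gene of the replicative polymerases delta and epsilon was called. Under PQY09 POLD1 stood at 0.10 ± 0.07, POLD2 at 0.04 ± 0.15, POLD3 at 0.06 ± 0.10, POLE at 0.21 ± 0.10 and POLE2 at 0.16 ± 0.08. Under PQY23_1 these 5 lay between -0.13 for POLE and 0.11 for POLE2.

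**Figure D3:**
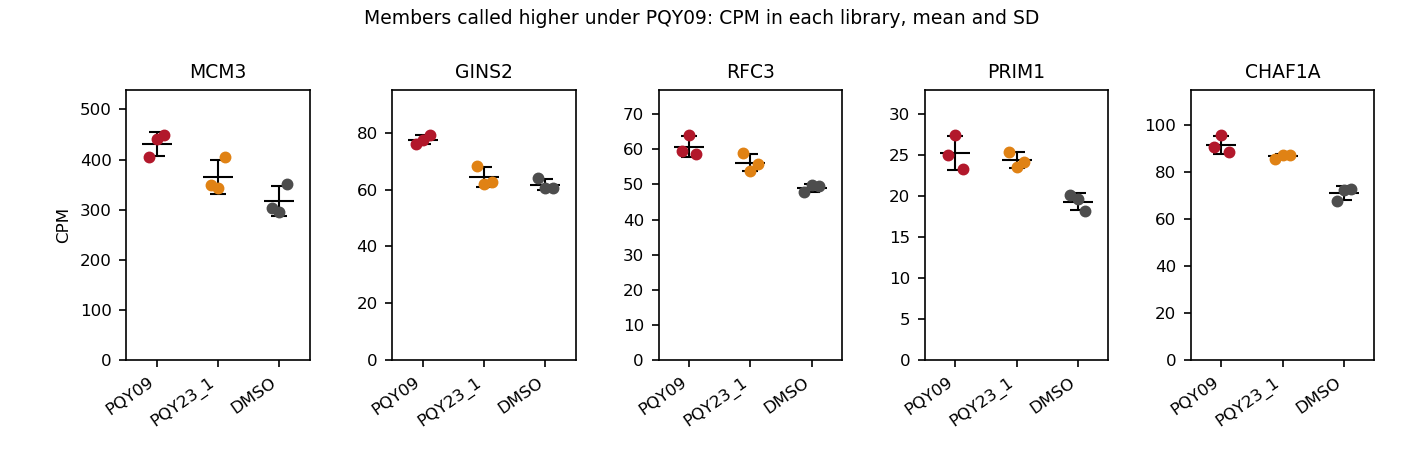
CPM of the 5 replication genes called higher under PQY09, in the 3 PQY09, 3 PQY23_1 and 3 DMSO libraries; points are libraries, the horizontal mark is the mean and the bar its SD. For all 5 genes the PQY09 points lie above the DMSO points, and for RFC3, PRIM1 and CHAF1A the PQY23_1 points do so too, while for MCM3 and GINS2 they overlap DMSO.

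RPA, the 3-subunit complex that coats single-stranded DNA, had no called gene. RPA3 (ENSG00000106399, chr7:7636518-7718607) encodes the smallest subunit. RPA3 RNA stood at 30.8, 30.1 and 35.6 CPM in the PQY09 libraries, 32.1, 24.01 and 24.7 in the PQY23_1 libraries and 23.7, 29.02 and 28.9 in the DMSO libraries. The PQY09 libraries were above DMSO and the PQY23_1 libraries overlapped it, at 0.24 ± 0.14 and -0.02 ± 0.14 (edgeR adjusted p = 0.458 and 0.974). RPA2 (ENSG00000117748, chr1:27891524-27914575) encodes the subunit phosphorylated in the replication stress response. RPA2 RNA stood at 52.8, 52.3 and 43.9 CPM in the PQY09 libraries, 58.5, 53.2 and 45.7 in the PQY23_1 libraries and 46.04, 48.8 and 47.3 in the DMSO libraries. All groups overlapped. Its log2 fold changes were 0.07 ± 0.10 and 0.15 ± 0.10 (edgeR adjusted p = 0.844 and 0.562), while RPA1, the large DNA-binding subunit, stood at 0.16 ± 0.06 and 0.10 ± 0.06 with both compounds above DMSO.

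Neither of the genes that finish Okazaki fragments was called, and both had PQY09 libraries above all DMSO libraries. LIG1 (ENSG00000105486, chr19:48115445-48170344) encodes the ligase that seals them. LIG1 RNA stood at 76.3, 79.00 and 70.95 CPM in the PQY09 libraries, 64.5, 67.96 and 71.8 in the PQY23_1 libraries and 58.9, 64.8 and 64.5 in the DMSO libraries. Its log2 fold changes were 0.27 ± 0.07 and 0.12 ± 0.07 (edgeR adjusted p = 0.0948 and 0.464). FEN1 (ENSG00000168496, chr11:61792911-61797238) encodes the nuclease that cuts off the flap left by the primer. FEN1 RNA stood at 138, 134 and 129 CPM in the PQY09 libraries, 136, 123 and 125 in the PQY23_1 libraries and 113, 118 and 119 in the DMSO libraries. Its log2 fold changes were 0.20 ± 0.06 and 0.13 ± 0.06 (edgeR adjusted p = 0.127 and 0.299). In the file the FEN1 locus shares 4259 bases with FADS2, a fatty acid desaturase gene on the same strand. FADS2 was itself called higher under PQY09 (log2 1.03, edgeR adjusted p = 0.000259) and stood at 0.01 under PQY23_1, and whether reads were split between the genes was not tested.

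None of the 4 nucleotide supply genes was called. RRM1 (ENSG00000167325, chr11:4094707-4138875) encodes the large subunit of ribonucleotide reductase. RRM1 RNA stood at 133, 136 and 127 CPM in the PQY09 libraries, 145, 131 and 141 in the PQY23_1 libraries and 118, 114 and 119 in the DMSO libraries. Both compound groups were above DMSO, and PQY23_1 had the higher mean with overlap between the compounds, at 0.17 ± 0.06 and 0.25 ± 0.06 (edgeR adjusted p = 0.169 and 0.06800). RRM2 (ENSG00000171848, chr2:10120698-10210597) encodes the small subunit that makes the enzyme active in S phase. RRM2 RNA stood at 287, 159.6 and 287 CPM in the PQY09 libraries, 149.9, 272 and 132 in the PQY23_1 libraries and 121, 259 and 134 in the DMSO libraries. Each group holds 1 library that departs from the others, low in PQY09 and high in PQY23_1 and DMSO, and the groups overlap. The RRM2 log2 fold change of 0.51 ± 0.38 under PQY09 has a 95% interval of -0.35 to 1.38, the widest of the 45 genes. TYMS, thymidylate synthase, and TK1, thymidine kinase, stood at -0.00 ± 0.11 and 0.05 ± 0.10 under PQY09 and at -0.04 ± 0.11 and 0.04 ± 0.10 under PQY23_1, all with overlap.

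**Figure D4:**
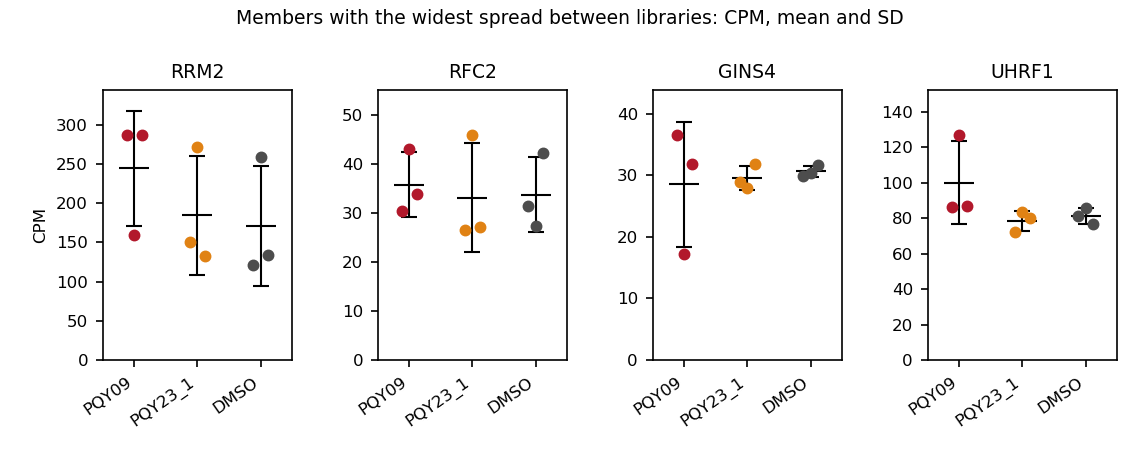
CPM of the 4 replication genes whose coefficient of variation exceeded 20% in at least 1 group, in the PQY09, PQY23_1 and DMSO libraries; points are libraries, the horizontal mark is the mean and the bar its SD. RRM2 runs from 121 to 287 CPM with 1 departing library in each group, RFC2 has 1 high library per group, and GINS4 and UHRF1 have 1 departing PQY09 library.

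Of the 3 chromatin genes, CHAF1A was called under both compounds and is the only member called under PQY23_1. CHAF1A (ENSG00000167670, chr19:4402640-4443397) encodes the large subunit of chromatin assembly factor 1, which deposits histones behind the fork. CHAF1A RNA stood at 90.8, 95.8 and 88.4 CPM in the PQY09 libraries, 85.7, 87.2 and 87.3 in the PQY23_1 libraries and 67.6, 72.4 and 72.9 in the DMSO libraries. Every library of either compound lay well above the DMSO libraries. CHAF1A rose 1.29-fold under PQY09 (0.37 ± 0.06, edgeR adjusted p = 0.01104) and 1.22-fold under PQY23_1 (0.29 ± 0.06, edgeR adjusted p = 0.0331). The CHAF1A call under PQY23_1 was lost in all 9 leave-outs and in 6 of the 11 other alternatives. CHAF1B, the partner of CHAF1A, stood at 0.20 ± 0.07 and 0.11 ± 0.07 (edgeR adjusted p = 0.192 and 0.4904). UHRF1, which binds hemimethylated DNA and recruits DNMT1, had 86.3, 127 and 87.03 CPM in the PQY09 libraries, 72.4, 83.4 and 80.2 in the PQY23_1 libraries and 81.2, 85.7 and 76.8 in the DMSO libraries. Its second PQY09 library is the high one, and the log2 fold changes were 0.30 ± 0.14 and -0.05 ± 0.14 (edgeR adjusted p = 0.366 and 0.926).

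The calls depend on single libraries. Without PQY09 replicate 2 no member was called under PQY09 (CHAF1A edgeR adjusted p = 0.0506). Without PQY09 replicate 1 or 3 or DMSO replicate 1 or 2 CHAF1A alone was called, and without DMSO replicate 3 CHAF1A and MCM3. Leaving out a PQY23_1 library, which only lends its spread to this comparison, gave 5, 2 and 3 calls without replicates 1, 2 and 3. The number of all genes called moved as well. It ran from 235 without DMSO replicate 2 to 628 without PQY23_1 replicate 1, against 574 with all 9 libraries. PRIM1 was lost in each of the 9 leave-outs (edgeR adjusted p 0.056 to 0.152), and CHAF1A under PQY23_1 was lost in each as well (0.0556 to 0.113). The log2 fold changes themselves moved little, those of the 5 called genes staying between 0.27 and 0.52 in every leave-out, and the median of the 45 genes between 0.20 and 0.21. In the coordinates of the file 29 of the 45 genes overlap another gene, 14 of them one with at least 1 CPM, and the strand setting of the counting is not given. PRIM1 shares 333 bases with NACA, a far more abundant gene on the same strand (280 CPM, log2 -0.31 under PQY09, edgeR adjusted p = 0.43). RFC3 shares 4636 bases with AL161891 (5.005 CPM, log2 -0.10, edgeR adjusted p = 0.817). Named pseudogenes of 9 of the genes held a mean of at most 9.67 counts per library.

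The compounds were then compared directly, as 1 pair at the matched dose of 50 µM, with p-values adjusted over the 20157 genes. Most replication genes had lower values in PQY23_1 than in PQY09 cells, but edgeR called 0 of the 45, against 2.22% of all genes in either direction and 1% lower. At an unadjusted p below 0.05 there were 7 lower and 0 higher of the 45, a share near the 14.7% of all genes in either direction. Of all 20157 genes 1469 were lower and 1499 higher at that p. DESeq2 and limma-voom called 1 member each. Over all genes DESeq2 called 582 higher and 514 lower, and limma-voom 272 higher and 222 lower. The log2 fold change was above 0 for 6 of the 45, against 48.7% of all genes, with a median of -0.09 against -0.01 over all genes. All 3 PQY23_1 libraries lay below all 3 PQY09 libraries in 12 genes and above in 0, against 11.2% and 10.8% of all genes. GINS2 came closest to a call, with 68.4, 61.9 and 62.8 CPM in PQY23_1 cells and 76.1, 77.5 and 79.2 CPM in PQY09 cells. Its log2 fold change was -0.27 ± 0.06 (edgeR adjusted p = 0.0563, 95% interval -0.40 to -0.14). GINS2 was called in this comparison without PQY23_1 replicate 1 (edgeR adjusted p = 0.0372), and POLE was called without PQY23_1 replicate 2. POLE, the catalytic subunit of polymerase epsilon, had 47.1, 61.9 and 53.3 CPM in PQY23_1 cells and 67.8, 71.1 and 66.1 CPM in PQY09 cells. The libraries do not overlap, but the difference did not pass the test (-0.34 ± 0.10, edgeR adjusted p = 0.129). MCM3 (-0.24 ± 0.09), MCM6 (-0.14 ± 0.06), MCM7 (-0.14 ± 0.06), POLA1 (-0.18 ± 0.07) and UHRF1 (-0.35 ± 0.14) were the others at an unadjusted p below 0.05. All 7 MCM genes were below 0, 5 of them without overlap between the compounds. Differences that did not pass the test include CDC45 (0.03 ± 0.08, 95% interval -0.15 to 0.20), PRIM1 (-0.05 ± 0.08, -0.24 to 0.14), CDT1 (-0.01 ± 0.09, -0.21 to 0.18) and CHAF1A (-0.08 ± 0.06, -0.21 to 0.05). For 42 of the 45 genes the interval lies within 1.5-fold in either direction, and RRM2, RFC2 and UHRF1 reach beyond it.

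**Figure D5:**
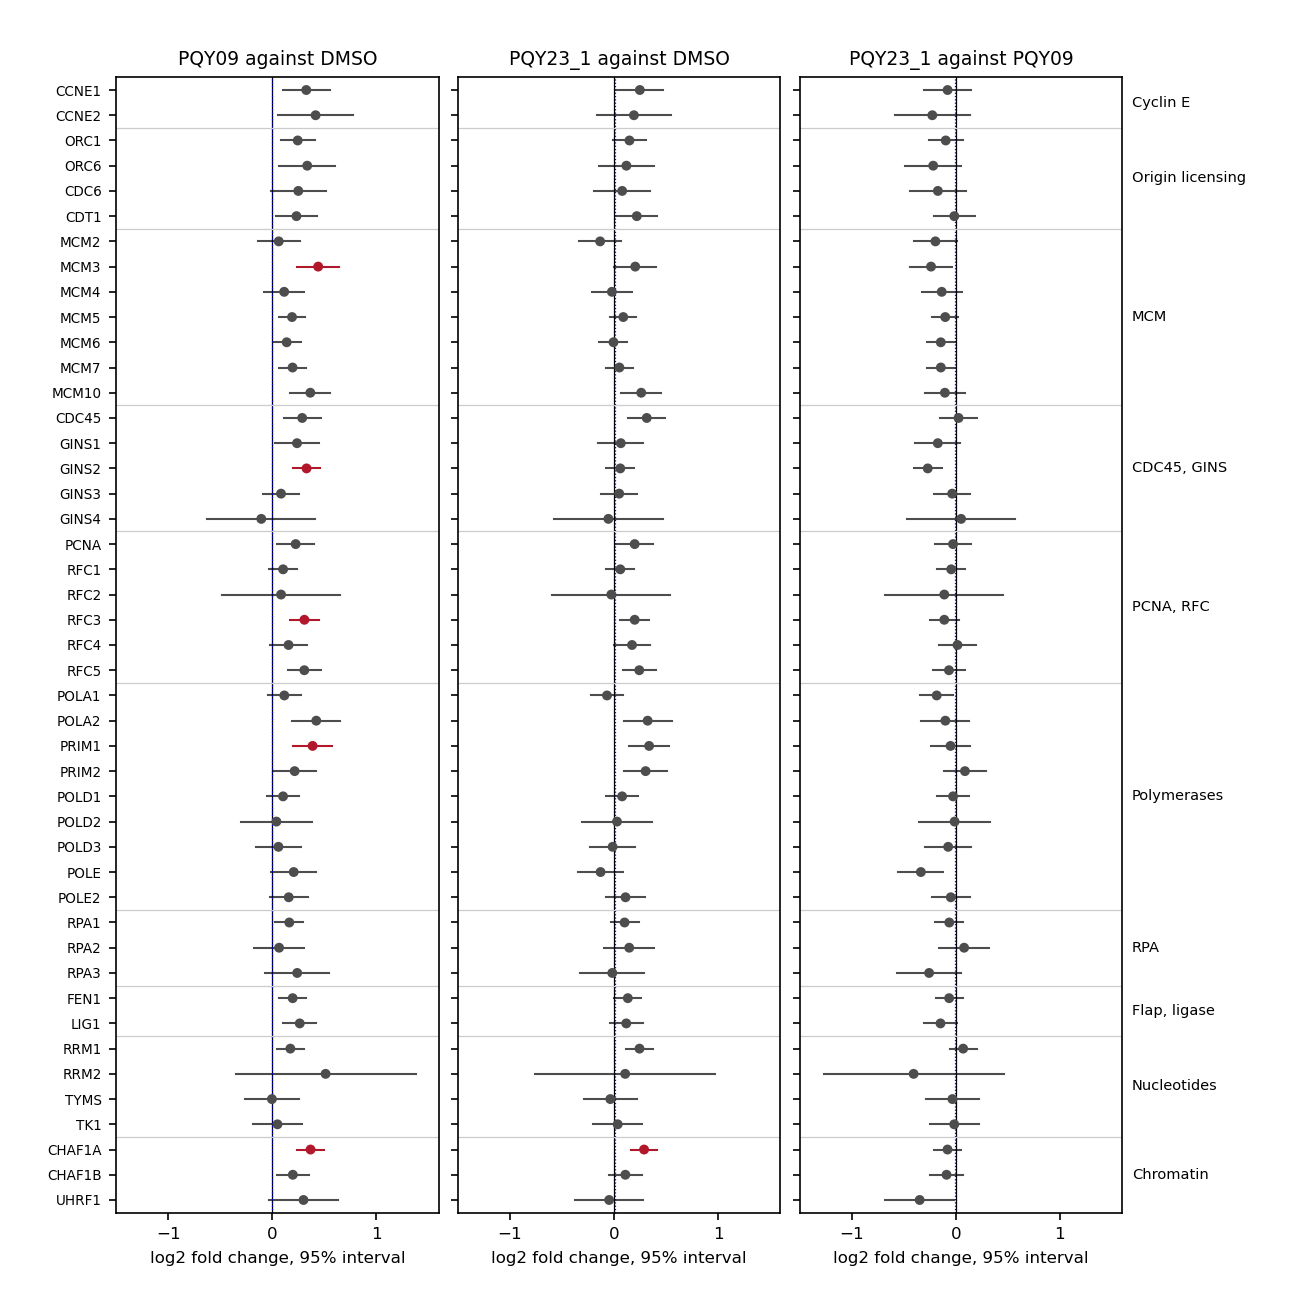
Log2 fold change (point) and 95% interval (bar) of each of the 45 replication genes in the 3 comparisons, by role group; red marks an edgeR adjusted p below 0.05, the solid line is 0 and the dotted line the median of all 20157 genes tested. In the left panel 43 points lie above 0 and 5 are red, in the middle panel 34 lie above 0 and CHAF1A is red, and in the right panel 39 lie below 0 and none is red.

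The wider replication programme was tallied in the same way. Of 82 other genes for replication, nucleotide metabolism, chromatin copying, E2F and RB factors and entry into S phase, 5 were called higher and 0 lower under PQY09, 6.10% against 2.85% of all genes. Their median log2 fold change was 0.14, with 60 above and 22 below 0, and unadjusted p was below 0.05 for 20 higher and 2 lower, against 15.6% of all genes. Under PQY23_1 1 was called higher and 0 lower, 1.22% against 2.55% of all genes, which is not above the background. The median there was 0.08, with 52 above and 30 below 0, and unadjusted p was below 0.05 for 12 higher and 4 lower, against 16.3% of all genes. The 5 include RNASEH2A, the catalytic subunit of RNase H2 (0.40 ± 0.08, edgeR adjusted p = 0.0349), DSCC1, a subunit of the alternative clamp loader for sister chromatid cohesion (0.40 ± 0.08, 0.0283), and DCK, deoxycytidine kinase (0.37 ± 0.08, 0.0445). DSCC1 is also the gene called under PQY23_1 (0.37 ± 0.08, edgeR adjusted p = 0.03997). Over the 9 leave-outs these calls under PQY09 were lost in 8 for RNASEH2A (edgeR adjusted p 0.0245 to 0.138), 7 for DSCC1 (0.0286 to 0.115) and 9 for DCK (0.0584 to 0.154). The DSCC1 call under PQY23_1 was lost in all 9 (0.069 to 0.152) and in 5 of the 11 other alternatives. TOP2A, topoisomerase II alpha, stood at 0.12 ± 0.07 under PQY09, and DNMT1, the maintenance methyltransferase, at 0.07 ± 0.12.

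Among the E2F genes, E2F1, an activator of this programme, had 64.03, 65.9 and 67.1 CPM in the PQY09 libraries, 60.2, 53.5 and 53.4 in the PQY23_1 libraries and 54.4, 47.6 and 51.3 in the DMSO libraries. The PQY09 libraries were above all others, and E2F1 rose by 0.36 ± 0.07 on the log2 scale under PQY09 (edgeR adjusted p = 0.0374), against 0.13 ± 0.07 under PQY23_1 (edgeR adjusted p = 0.454). E2F8, a repressor that is itself made in S phase, had 20.1, 20.6 and 19.9 CPM in the PQY09 libraries, 14.3, 17.7 and 15.5 in the PQY23_1 libraries and 15.01, 14.6 and 12.1 in the DMSO libraries. It rose by 0.54 ± 0.11 on the log2 scale under PQY09 (edgeR adjusted p = 0.0404) and stood at 0.19 ± 0.11 under PQY23_1 (edgeR adjusted p = 0.457). The calls under PQY09 were lost in 8 of the 9 leave-outs for E2F1 (edgeR adjusted p 0.0250 to 0.136) and in 7 for E2F8 (0.0380 to 0.131). Both were also lost without the filter on low counts, with only the 2 groups compared and with the replicate block. E2F7, the related repressor, had 17.3, 17.8 and 16.9 CPM in the PQY09 libraries, 7.87, 11.1 and 10.7 in the PQY23_1 libraries and 11.3, 13.02 and 12.7 in the DMSO libraries. The PQY09 libraries were above and the PQY23_1 libraries below all DMSO libraries, neither past the test (0.49 ± 0.13 and -0.32 ± 0.13, edgeR adjusted p = 0.106 and 0.286). Between the compounds E2F7 was lower in PQY23_1 than in PQY09 cells by a called difference (-0.81 ± 0.13, edgeR adjusted p = 0.0186), the only one among the 82 genes. That is 1.22% of the list, against 2.22% of all genes in either direction, which is not above the background. E2F2 stood at 0.28 ± 0.11 and 0.29 ± 0.11, and RB1 at 0.07 ± 0.10 and 0.18 ± 0.10 under PQY09 and PQY23_1. CDK2, the kinase partner of cyclin E, stood at 0.19 ± 0.13 and 0.26 ± 0.13, and CCNA2, cyclin A2, at 0.18 ± 0.06 and 0.03 ± 0.06. None of the 4 was called.

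Of 28 genes of G2 and mitosis 1 was called higher and 0 lower in each comparison with DMSO, 3.57% of the list against 2.85% of all genes under PQY09 and 2.55% under PQY23_1, shares near the background. The medians were 0.10 under PQY09 and 0.03 under PQY23_1. Unadjusted p was below 0.05 for 5 higher and 2 lower under PQY09 and for 7 higher and 0 lower under PQY23_1, against 15.6% and 16.3% of all genes. The called gene was HMMR, a spindle-associated hyaluronan receptor, at 0.33 ± 0.06 and 0.34 ± 0.06 (edgeR adjusted p = 0.0178 and 0.0176). The HMMR call was lost in 6 of the 9 leave-outs under PQY09 (edgeR adjusted p 0.0233 to 0.0862) and in 5 under PQY23_1 (0.0284 to 0.0889). MKI67, the proliferation antigen Ki-67, had 345, 171 and 191 CPM in the PQY09 libraries, 119, 373 and 187 in the PQY23_1 libraries and 176, 274 and 232 in the DMSO libraries. Like RRM2 it differed more between libraries of 1 group than between groups, and its 95% intervals reach well to both sides of 0. The difference between the replication genes and the G2 and mitosis genes was not tested.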

How the data were processed

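The 9 libraries, 3 per group, are of total RNA from HepG2 cells. The submitters' processing notes name DESeq2 and edgeR beside StringTie 1.3.4d, HISAT2 2.0.4 and cutadapt 1.9, without roles, and hg38 as the build; the strand setting and annotation release are not stated there. The authors deposited estimated counts, which are whole numbers here, and FPKM values scaled by gene length and library size, in 1 table of 60612 genes, 31442 of them with a count. Low counts pile up at 4 (10696 values, against 4024 at 3), so an alternative divided counts by 4.

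Counts were used as deposited. Genes were kept by filterByExpr (minimum count 10, minimum total 15) in edgeR 4.0.16, which left 20157. All 9 libraries were scaled by TMM and fitted with a mean per group, leaving 6 residual degrees of freedom, and each of the 3 comparisons used the two-sided quasi-likelihood test. The common biological coefficient of variation was 29.7%. P-values were adjusted by Benjamini-Hochberg over all genes of a comparison and called below 0.05. The SE is the log2 fold change divided by the root of the F statistic, with 95% intervals. The replicates differed by more than counting noise, so none was merged. Alternatives used edgeR with RLE factors or library totals, no filter, only the 2 groups compared, a replicate block, DESeq2 1.42.0, limma 3.58.1 (voom, and log2 of FPKM + 1, FPKM + 0.1 and TPM + 1, on 11646 genes with at least 1 FPKM in 3 libraries), and each library left out. Scripts were tested on counts simulated for PQY09 against DMSO, in which randomly picked genes were changed. The test called 0% of 50 genes changed 1.25-fold, 22% of 50 changed 1.5-fold and 74% of 50 changed 2-fold. A gene that was not called may therefore still differ by a small amount. The picked genes were not matched to the 45 members, so these shares need not hold for them. The members' median coefficient of variation was 5.05% in PQY09, 6.77% in PQY23_1 and 5.81% in DMSO libraries. The smallest change called among them under PQY09 was 1.24-fold. R was 4.3.3.

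The members, gene lists and comparisons were chosen with earlier results of these data known. Members with values in every library are those called in any comparison and, per role group, the largest log2 change under each compound; GINS4 and UHRF1 were added after their values were seen, for their spread, and MKI67, E2F1, E2F7 and E2F8 come from a panel of 11 listed with the genes. Other genes are named where called or as part of that panel. A gene of the panel is not reported here. Promoters are those of RefSeq, and coordinates those of the table (hg38, counted from 1).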

Additional observations from a re-analysis of the deposited data

Results flagged for a closer look

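E2F7, which encodes a repressor of E2F target genes, was the gene of the wider replication programme whose response differed between the compounds by a test of the difference itself: its log2 fold change was -0.81 with PQY23_1 against PQY09 (SE 0.13, edgeR adjusted p = 0.0186), the PQY23_1 libraries lying below and the PQY09 libraries above all DMSO libraries. Over the 9 leave-outs it stayed between -0.90 and -0.67, and the call was lost without PQY09 replicate 1 (edgeR adjusted p = 0.0748), 2 (0.0804) or 3 (0.0587), and with only the 2 groups compared (0.062). The share called among the 82 genes of this programme was 1.22%, against 2.22% of all genes.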

How the results depend on the processing

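The log2 fold changes of the 5 called replication genes kept their direction under PQY09 in all 11 alternatives and 9 leave-outs. Members called under PQY09 (5 in the main analysis) numbered 9 by DESeq2, 8 by limma on log2(FPKM + 1) and on log2(FPKM + 0.1), 3 on log2(TPM + 1), 2 without the filter on low counts and 3 with only the 2 groups compared. All genes called there numbered 1253, 707, 713, 498, 400 and 459 in the same order, against 574 in the main analysis. The FPKM and TPM fits covered 11646 genes, and DESeq2 and the fit without the filter 31442, against 20157 in the main analysis. The leave-outs gave 0 to 5 members under PQY09, 0 to 0 under PQY23_1 and 0 to 1 for PQY23_1 against PQY09. Under PQY23_1 (1 member called) there were 4 by DESeq2 and 0 with library totals alone, on log2(FPKM + 0.1), on log2(TPM + 1), without the filter and with only the 2 groups. Over all genes these settings called 1263, 488, 620, 707, 359 and 224 in the same order, against 514 in the main analysis. For PQY23_1 against PQY09 (0 members called) there was 1 with library totals alone, DESeq2, limma-voom, log2(FPKM + 1), log2(FPKM + 0.1) and counts divided by 4, and 5 on log2(TPM + 1). Over all genes these settings called 492, 1096, 494, 586, 566, 565 and 920 in the same order, against 448 in the main analysis. On log2(TPM + 1) 775 of the 920 were lower. The members' median with library totals alone was 0.23 under PQY09, 0.071 under PQY23_1 and -0.14 for PQY23_1 against PQY09. It was 0.074 on log2(FPKM + 1) and -0.024 on log2(TPM + 1) under PQY23_1, and -0.13 on log2(FPKM + 0.1) and -0.23 on log2(TPM + 1) for PQY23_1 against PQY09, where the TPM scale moved the median of all genes to -0.14. Leave-outs kept the medians at 0.20 to 0.21, 0.09 to 0.11 and -0.12 to -0.08. All genes called numbered 1253, 1263 and 1096 by DESeq2 for the 3 comparisons, 224 under PQY23_1 and 295 for PQY23_1 against PQY09 with only the 2 groups, and 920 on log2(TPM + 1) for PQY23_1 against PQY09, with leave-outs at 235 to 628, 138 to 371 and 222 to 397. Of these calls for PQY23_1 against PQY09, 54.9% were higher in the main analysis, 39.6% with library totals alone, 40.4% on log2(FPKM + 1), 41.3% on log2(FPKM + 0.1) and 15.8% on log2(TPM + 1). The cause of these differences was not tested, beyond fewer samples in the leave-outs and 2-group fits.

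Same-numbered libraries showed little in common over all genes tested. The correlation of their deviations from the group means was -0.036 to 0.026 (0 of 9 pairs over 0.1), and 3 of 9 libraries correlated best with their own number. Whether they shared a batch is not given by the labels. These correlations cannot decide it, because a batch that moved few genes would not show in them. With the replicate block 2 members were called under PQY09, 0 under PQY23_1 and 0 for PQY23_1 against PQY09, and 342, 237 and 267 of all genes.

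Single genes, none of them called in the comparison concerned, changed sign as follows. On log2(TPM + 1) under PQY23_1, GINS2 moved to -0.073, ORC6 to -0.0082, LIG1 to -0.015, FEN1 to -0.0020, RRM2 to -0.013 and E2F1 to -0.0085. For PQY23_1 against PQY09, CDC45 moved to -0.025 with library totals alone, -0.015 on log2(FPKM + 1), -0.016 on log2(FPKM + 0.1) and -0.13 on log2(TPM + 1), HMMR to -0.037, -0.026, -0.027 and -0.14 in the same order, and RPA2 to -0.079 and RRM1 to -0.086 on log2(TPM + 1). Leaving out single libraries turned RRM2 (-0.28 to 0.54) and RPA3 (-0.16 to 0.060) under PQY23_1, and CCNE1 (-0.15 to 0.025), CDT1 (-0.085 to 0.060), DSCC1 (-0.070 to 0.019), HMMR (-0.0061 to 0.048), PRIM1 (-0.11 to 0.0091) and RPA2 (-0.0071 to 0.17) for PQY23_1 against PQY09.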
